A study of Mus musculus with 8 samples.

Results

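Gclm-high myeloid cells were examined among the immune cells of mouse mammary tumors. They were chosen by their mRNA for 4 antioxidant genes: Gclm, the modifier subunit of the enzyme that starts glutathione synthesis, Slc7a11, the cystine importer of system xc-, Srxn1, the sulfiredoxin that repairs overoxidized peroxiredoxins, and Txnrd1, the cytosolic thioredoxin reductase. The base set was cells with 500 to 6000 detected genes, mitochondrial transcripts under 10%, at least 2000 unique molecular identifiers (UMIs, counted mRNA molecules), at most 1 UMI summed over Cd3d, Cd3e and Cd3g, and 0 UMIs of Ncr1, a filter against T and NK cells. Each cell was scored by the 4 genes' UMIs per 10000 UMIs, and the highest 3% over all mice pooled were taken, which gave 251 of 8375 base-set cells, from 11430 deposited cells. The groups were not used in that choice. The study sorted CD45+ cells, which are leukocytes, from orthotopic mammary tumors 18 days after implantation into C57BL/6 mice and profiled them by droplet 3′ single-cell RNA sequencing with sample tags. The groups were tumors of the parental line E0771 (2 mice here, replicates 1 and 3), of E0771-Res1 (3 mice) and of E0771-Res2 (3 mice). E0771 is a triple-negative mammary carcinoma line of C57BL/6 origin, and each resistant group was a single line grown out of an E0771 tumor that came back after paclitaxel combined with anti-PD-1. Replicate 2 of the parental group was not analysed here. Mice carried 478 to 1597 base-set cells with median depths of 5871 to 8472 UMIs, and 0 cell barcodes occurred in more than 1 mouse.

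NRF2, encoded by Nfe2l2, is a transcription factor that KEAP1 marks for degradation until oxidants or electrophiles modify KEAP1. It then pairs with small MAF proteins on antioxidant response elements and drives genes for glutathione and thioredoxin cycling, NADPH supply, heme breakdown and iron storage. Tumor macrophages load this pathway when they digest heme and cell debris, and Slc7a11 also answers to ATF4, the effector of the integrated stress response.

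The score genes are described here without a test, because they made the choice. The highest score was 119.911, the median of the chosen cells was 21.2, and the median of the 8124 other base-set cells was 1.09. The lowest chosen cell scored 13.378 and the next cell down scored 13.347, with 38 chosen cells and 44 other cells within 10% of that line, and the class is a cut through a score, not a cell type. Slc7a11 supplied 50.4% of the score UMIs, Gclm 21.2%, Txnrd1 20.4% and Srxn1 7.99%. A Slc7a11 UMI was present in 244 chosen cells, a Txnrd1 UMI in 184, a Srxn1 UMI in 109 and a Gclm UMI in 107. All 4 genes were detected in 65 cells and a single gene in 44 cells. The chosen cells were therefore mostly Slc7a11-high, and Gclm itself was detected in 42.6% of them against 10.4% of the other cells.

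In GRCm38, Gclm lies on chromosome 3 at 122245557 to 122270732, Slc7a11 on chromosome 3 at 49892526 to 50443614, Srxn1 on chromosome 2 at 152105516 to 152111376 and Txnrd1 on chromosome 10 at 82833951 to 82897712. Promoter windows from RefSeq (GRCm38.p6, 250 bases before to 50 after each annotated start) were searched on both strands for TGACNNNGC, the core letters of the antioxidant response element. These letters were in 12.4% of 32851 windows, and 3.66% of the windows holding them had them overlapping TGANTCA, the letters bound by AP-1 factors. At least 1 window of Gclm, Srxn1 and Txnrd1 held them, and the window of Slc7a11 did not. The stretches before the start that held a match in a pair of score genes, in the peroxiredoxin gene Prdx1 and in the NADPH-producing G6pdx are shown because these genes are described below, each on the gene's own strand with the match in capitals. All 4 matches read in the reverse direction of the gene, and the match in Prdx1 also holds TGANTCA.
Gclm: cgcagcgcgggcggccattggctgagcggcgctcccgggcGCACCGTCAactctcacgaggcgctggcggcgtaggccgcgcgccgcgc
Txnrd1: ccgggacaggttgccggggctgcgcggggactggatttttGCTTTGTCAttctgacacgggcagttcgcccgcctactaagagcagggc
Prdx1: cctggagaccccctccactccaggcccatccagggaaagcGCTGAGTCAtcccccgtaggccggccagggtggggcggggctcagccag
G6pdx: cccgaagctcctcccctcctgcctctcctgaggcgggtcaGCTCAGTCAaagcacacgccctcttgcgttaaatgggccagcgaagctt
They lie at chr3:122245383-122245471, chr10:82859074-82859162, chr4:116685426-116685514 and chrX:74428889-74428977, the last on the minus strand and the others on the plus strand. Each match starts 134 bases (Gclm), 92 bases (Txnrd1), 133 bases (Prdx1) or 57 bases (G6pdx) before the annotated start. A match is a run of letters and not a measured binding site.

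The myeloid label held. Pan-myeloid markers (Ptprc, Tyrobp, Fcer1g, Lyz2, Itgam, Spi1, Cd68, Fcgr3) summed to 17496 CPM (UMI counts scaled to a common total) in Gclm-high cells and 19220 CPM in the other cells, led by Lyz2 at 8327 and 8591 CPM, and none of the 8 passed the test described below. Of the Gclm-high cells, 231 (92.0%) met a monocyte-macrophage gate against 78.7% of the others, or 83.3% against 79.8% after each cell was thinned to 2000 UMIs. Tumor epithelial markers summed to 3.56 CPM with Epcam at 0, stromal markers to 22.6 CPM (13.1 CPM in the other cells, Acta2 highest in Gclm-high cells at 14.2 CPM) with Col1a1 at 0, mast and basophil markers to 0 and erythroid markers to 1.78 CPM. A stromal-list UMI was found in 12.3% of Gclm-high cells and 6.96% of the others, and its part in the results was not tested. Per cell, the median of the macrophage marker list was 40.7 per 10000 UMIs in Gclm-high cells and 54.8 in the others, that of the monocyte list 20.5 and 30.1, and that of the neutrophil, dendritic, B, and T and NK lists 0 in both. Gclm-high cells were shallower, with a median of 5755 UMIs against 7373.5. UMIs are the denominator of the score, and 214 of the 251 cells were chosen again when all cells were thinned to 2000 UMIs. No doublet caller was run. Of the Gclm-high cells, 6 (2.39%) were among the highest 5% of UMI totals in their mouse, against 5.12% of the others.

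The first question was whether the share of Gclm-high cells differed between parental and resistant tumors. In E0771 tumors the share was 1.97% (17 of 861 cells) and 1.88% (9 of 478). In E0771-Res1 tumors it was 2.69% (43 of 1597), 10.5% (51 of 485) and 2.75% (20 of 728). In E0771-Res2 tumors it was 1.59% (24 of 1508), 3.15% (37 of 1173) and 3.24% (50 of 1545). E0771-Res1 replicate 2 stood apart, with an exact 95% binomial interval of 7.93% to 13.6% that overlapped no other mouse's. Both parental mice lay below all E0771-Res1 mice and between the E0771-Res2 mice. The intervals cover counting error only.

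**Figure D1:**
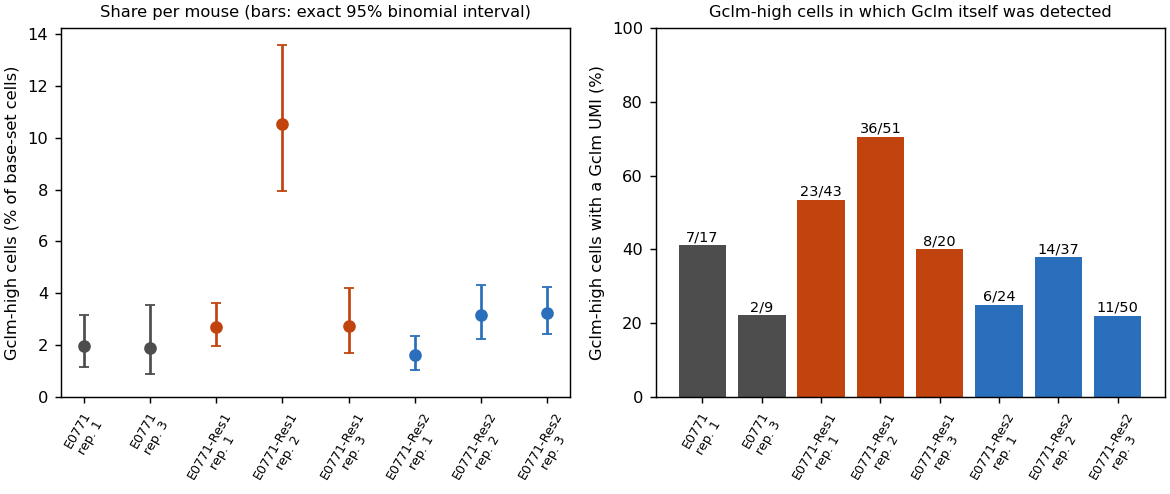
Left, Gclm-high cells as a percent of base-set cells in each mouse, with exact 95% binomial intervals. Right, the percent of those cells with at least 1 Gclm UMI, with counts above the bars. E0771-Res1 replicate 2, at 10.5%, is above every other mouse on the left and also has the largest share with a Gclm UMI (36 of 51).

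The E0771 mean was 1.93% ± 0.0648 (SD, n = 2). E0771-Res1 tumors averaged 5.32% ± 4.50 (SD, n = 3), and E0771-Res2 tumors 2.66% ± 0.927 (SD, n = 3). The resistant mice together exceeded the parental mice by 2.06 percentage points, a difference smaller than the spread among the E0771-Res1 mice (exact permutation over 28 splits, two-sided, p = 0.357, adjusted p = 0.6 over 4 comparisons). The difference fell to 0.756 points without E0771-Res1 replicate 2. E0771-Res1 exceeded E0771 by 3.39 points (exact p = 0.5), or 0.791 without that mouse, and E0771-Res2 exceeded E0771 by 0.732 points (exact p = 0.4). With 2 mice against 3, no such test can go below 0.1. E0771-Res2 minus E0771-Res1 was -2.66 points (exact p = 0.6) and -0.0592 without E0771-Res1 replicate 2. That mouse also had the highest level of each score gene over its whole base set, for example 110.0 CPM of Gclm, where the 7 other mice held 18.9 to 38.8 CPM.

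To ask what else set these cells apart, counts were summed per mouse over Gclm-high cells and over the other base-set cells and compared within mice (edgeR quasi-likelihood test, mouse as block, Benjamini-Hochberg adjustment over 8381 genes, score genes left out). E0771 replicate 3, with 9 Gclm-high cells, was below the minimum of 10 and is not in the fit, so the test rests on 7 mice, while the levels below cover all 8. Of all genes tested, 472 (5.63%) were higher and 427 (5.09%) lower in Gclm-high cells at adjusted p under 0.05, 10.7% in either direction, and the median log2 fold change was -0.0464. NRF2 targets outside the score rose almost throughout: of 26 in the list, 23 could be tested, 20 were higher and none lower, with a median log2 fold change of 1.32. The list was written with earlier results of these data known. Nqo1, Me1 and Gsta4 were too low to test, and Tkt, Abcc4 and Ugdh did not pass.

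Genes of heme breakdown and iron handling had some of the largest differences. Hmox1 (heme oxygenase 1) measured 2751 and 3063 CPM in the Gclm-high cells of the 2 parental mice, 5738, 6259 and 5668 CPM in E0771-Res1 and 875.06, 3017 and 1954 CPM in E0771-Res2. The other cells of the same mice held 154 to 675 CPM, with a median of 233, so the classes did not overlap. The log2 fold change was 3.64 ± 0.207 (SE, n = 7 mice, edgeR adjusted p = 1.08e-15), with Gclm-high cells higher in 7 of 7 mice. Slc40a1 (ferroportin, the iron exporter) ranged from 14.96 to 307 CPM (median 155) in Gclm-high cells and from 3.28 to 37.0 CPM (median 8.78) in the others, with a log2 fold change of 3.51 ± 0.276. These ranges overlapped, since E0771-Res2 replicate 1 was at 14.96 CPM in its Gclm-high cells and 12.5 CPM in its other cells. Slc48a1, which carries heme out of lysosomes, ranged from 60.5 to 347 CPM against 28.6 to 59.9 CPM without overlap. Blvrb (biliverdin reductase B), Ftl1 and Fth1 (the ferritin chains, whose pseudogenes make their counts uncertain) and Slc11a1 were also higher. In all, 7 of 14 tested iron and heme genes were higher, and Hpgds, a prostaglandin D synthase placed in that list, was lower. Hmox1, Blvrb, Ftl1 and Fth1 are also in the NRF2 target list, so the counts of these lists share genes.

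**Figure D2:**
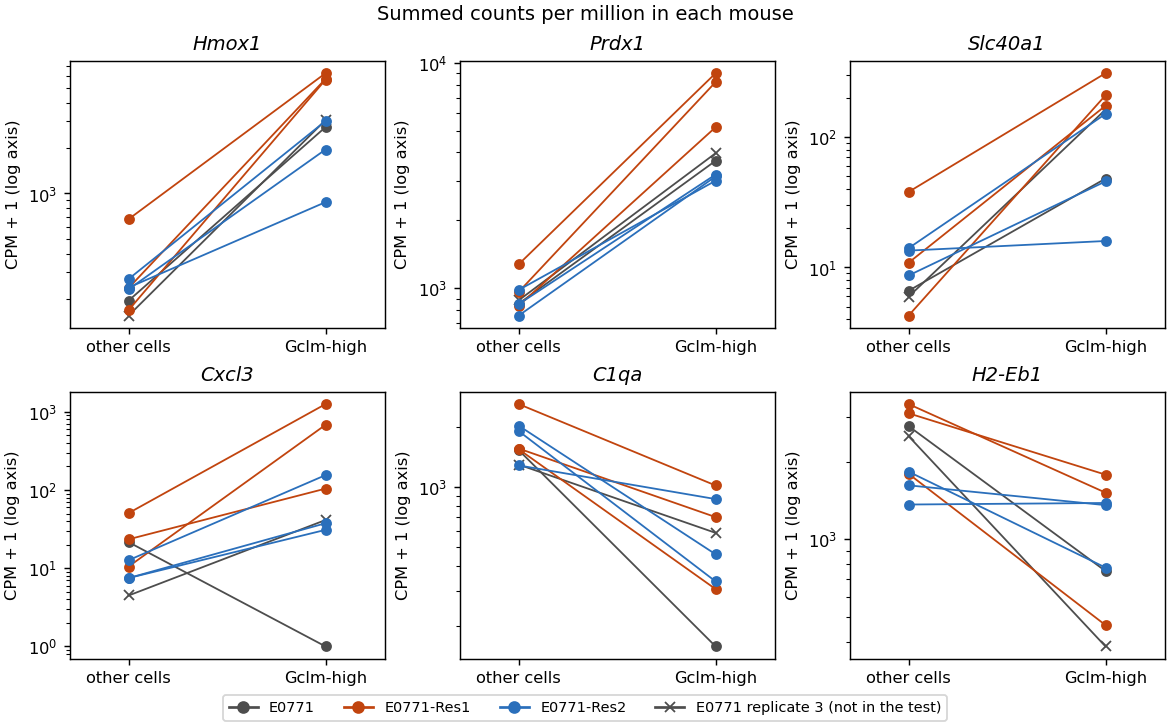
Summed CPM (plus 1, log axis) of 6 genes in the other base-set cells and in the Gclm-high cells, with a line per mouse and crosses for E0771 replicate 3, which is not in the test. Hmox1 and Prdx1 are higher and C1qa lower in Gclm-high cells of all 8 mice without overlap, while Slc40a1, Cxcl3 and H2-Eb1 overlap.

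Antioxidant enzymes outside the score moved selectively. Prdx1, the NRF2-responsive peroxiredoxin, measured 3676 and 3970.3 CPM in E0771, 8203, 8979 and 5176 CPM in E0771-Res1 and 2999, 3194 and 3133 CPM in E0771-Res2 Gclm-high cells. The other cells held 757 to 1278 CPM, and the log2 fold change was 2.34 ± 0.133 (edgeR adjusted p = 1.08e-15). Gclc, the catalytic partner of Gclm, ranged from 20.2 to 118 CPM against 6.30 to 10.8 CPM, with a log2 fold change of 3.05. Of 16 tested thioredoxin and peroxiredoxin genes, Prdx1, Prdx5, Prdx6, Txn1, Cat and Sod2 were higher, while Prdx2, the mitochondrial Prdx3 and Txnip, which binds and blocks thioredoxin, were lower. The Prdx3 call was lost without E0771 replicate 1, E0771-Res1 replicate 2 or 3 or E0771-Res2 replicate 2, and with DESeq2. Of 13 tested glutathione genes, Gclc, Gss, Gsr, Gstm1, Gstp1 and Slc3a2, the partner chain of Slc7a11, were higher, and Gpx1 was lower (672 to 950 CPM against 1068 to 1265 CPM, without overlap). The rise of Gss was seen in 5 of 7 mice and was lost without E0771-Res1 replicate 2. In the pentose phosphate pathway, which supplies NADPH, G6pdx, Pgd and Taldo1 were higher and the other 6 tested genes did not pass. Those genes, with Prdx1, Prdx6, Txn1, Cat, Gclc, Gss, Gsr and Gstm1, were already counted among the higher NRF2 targets. The lists of this paragraph are therefore not separate evidence from that list.

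Of the 6 NRF2 regulators tested, 1 passed. Nfe2l2 ranged from 263 to 464 CPM in Gclm-high cells and from 210 to 304 CPM in the others, with a log2 fold change of 0.30 (edgeR adjusted p = 0.0546). Keap1, Bach1, Mafk and Cul3 did not pass either. Maff, a small MAF, passed with a log2 fold change of 0.64 (adjusted p = 0.0366), but leaving out any of 5 single mice, E0771-Res1 replicate 1 or 2 or any E0771-Res2 replicate, ended that call. Mafg, counted among the targets, was higher by 1.13. Of 20 tested genes of the ATF4 response, Gdf15, Slc3a2, Ddit4 and Atf4 were higher and none lower, with a list median of 0.0950. The Atf4 call was lost without E0771-Res1 replicate 2 or 3 or E0771-Res2 replicate 2 or 3 and within the monocyte-macrophage gate, and the count fell to 2 without E0771-Res1 replicate 2, E0771-Res1 replicate 3 or E0771-Res2 replicate 2. Gdf15, a stress-induced cytokine, was the largest of them at 1.86. The ATF4 targets Asns, Psat1, Phgdh and Trib3 did not pass.

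Among the 15 largest differences that had the same sign in all 7 mice, Ptgr1, an NADPH-dependent reductase of reactive aldehydes and leukotrienes, led at 3.66 ± 0.192. It measured 110 CPM in E0771 replicate 1 and was at 0 in E0771 replicate 3, where few cells were sampled, against 256 to 284 CPM in E0771-Res1 and 67.3 to 122 CPM in E0771-Res2. The others were Hmox1, Slc40a1, Inhba (the activin A subunit, 2.77), Abcc1 (a glutathione conjugate exporter, 2.36), Prdx1, Gstm1, Slpi (a secreted protease inhibitor, 2.21), Slc48a1, Spic (the transcription factor of heme-handling macrophages, 2.19), Cyb5a, Ptgs2, the lectin Clec4d (1.94), Gdf15 and Cxcl2. The autophagy receptor Sqstm1, itself an NRF2 target, was higher by 1.73, and 5 of 17 tested autophagy and lysosome genes were higher and 1 was lower.

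**Figure D3:**
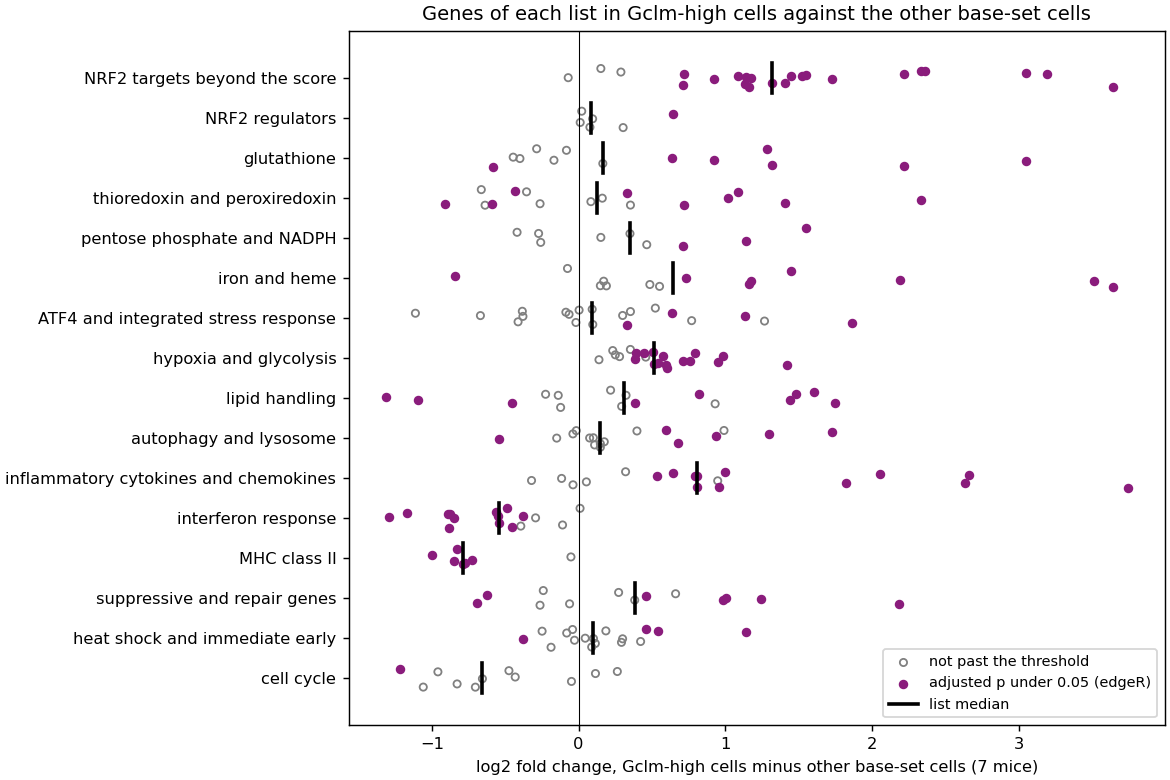
log2 fold change of Gclm-high minus other base-set cells for each tested gene of 16 lists (filled, past adjusted p under 0.05 with edgeR over 7 mice), with the list median as a bar. The NRF2 target list has the highest median (1.32), and the medians of the MHC class II, cell cycle and interferon lists lie below 0.

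Inflammatory mediators were higher as well. Of 18 tested cytokine and chemokine genes, 12 were higher and none lower, with a list median of 0.807, in a comparison where 5.63% of all genes were higher. Ptgs2 (cyclooxygenase 2) ranged from 303 to 873 CPM in Gclm-high cells and from 85.2 to 237 CPM in the others, without overlap. The neutrophil-attracting chemokine Cxcl2 was among the most abundant, with 3699 to 15513 CPM against 1481 to 4409 CPM and a log2 fold change of 1.82 ± 0.119. Cxcl3, which gave the largest fold change of the list (3.74 ± 0.352), was uneven: 1252 CPM in E0771-Res1 replicate 2, 679 in replicate 3, 0 in E0771 replicate 1, and 77.8% of its 689 UMIs came from 5 cells. Il1a, Il1b, Il1rn, Tnf, Nlrp3, Ccl3, Cxcl1, Nfkbia and Tnfaip3 completed the 12, while Il6, Ccl2, Ccl4, Ccl6, Ccl7 and Ccl9 did not pass. Cxcl1 was higher in 4 of 7 mice. The Il1b call was lost without mouse as block and with the score without Slc7a11.

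Of 21 tested genes of hypoxia and glycolysis, 15 were higher, by small amounts (list median 0.515). Bnip3, a hypoxia-induced mitophagy receptor, ranged from 64.1 to 127 CPM against 36.8 to 58.3 CPM, and the glycolytic enzyme Aldoa was higher by 0.76. The count fell to 8 without E0771-Res1 replicate 2, and also to 8 when cells with at least 3 UMIs of neutrophil markers were left out before ranking. Of 17 heat shock and immediate early genes, Egr1, Hsp90aa1 and Ier3 were higher and Ier2 lower. Without the cells holding at least 3 neutrophil-marker UMIs, 1 gene of that list was higher and 0 were lower. With the score without Slc7a11, 3 were higher and 3 lower. No gene of the list was lower without E0771 replicate 1, E0771-Res1 replicate 1 or 3 or E0771-Res2 replicate 1, or with DESeq2. The 11 tested cell cycle genes gave a single call, Top2a, which was lower. That call was lost without any of 5 single mice, E0771-Res1 replicate 1 or 2 or any E0771-Res2 replicate.

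The 3 C1q chains and 6 of 7 MHC class II pathway genes were lower. C1qa, a chain of complement C1q, measured 157 and 584 CPM in E0771, 1011, 702 and 305 CPM in E0771-Res1 and 456, 864 and 333 CPM in E0771-Res2 Gclm-high cells. The other cells held 1275 to 2590 CPM, so there was no overlap, and the log2 fold change was -1.74 ± 0.178 (edgeR adjusted p = 3.13e-09). C1qb and C1qc were also lower without overlap. Ms4a7, Fcgr1 and Adgre1 were lower as well, with overlap for Ms4a7 and Adgre1, so that 6 of 10 macrophage markers were lower and none higher. The Adgre1 call was lost without E0771-Res2 replicate 3. Of 7 genes of the MHC class II pathway, 6 were lower (Cd74, H2-Aa, H2-Ab1, H2-DMa, H2-DMb1 and H2-Eb1, whose paralogs share sequence), with a list median of -0.788. Ciita, their master regulator, did not pass. H2-Eb1 ranged from 383 to 1783 CPM against 1365 to 3351 CPM.

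Of 16 interferon-response genes, 12 were lower and none higher (list median -0.545, against 5.09% of all genes lower). Cxcl9, the interferon gamma-induced T cell chemokine, had a median of 71.6 CPM in Gclm-high cells and 300 CPM in the others, was lower in 6 of 7 mice and was higher in E0771-Res2 replicate 2 (303 against 219 CPM). Isg15, Irf7, Gbp2, Ifi47 and Usp18 were among the 12. Scoring without Slc7a11 gave 7 lower genes. The largest decreases by the naming rule were Mgl2 (a galactose lectin of dermal and dendritic-type macrophages), Ppfia4, Ccl8, Ccnd1, BC147527, Clec4b1, Tmem176a, Ifitm1, Slamf9, C1qa, Klrd1, C1qc, Gzma, Cbfa2t3 and Rnase4, with log2 fold changes between -2.68 and -1.53. The median mouse had 0 counts of Mgl2 in its Gclm-high cells, so its fitted value is not a measured fold. Ccnd1 (cyclin D1) ranged from 12.4 to 78.4 CPM against 136 to 190 CPM. Klrd1 and Gzma are NK genes and were at most 33.4 CPM in Gclm-high cells, while the other cells held 31.8 to 59.2 CPM and 18.1 to 96.8 CPM.

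Markers of other cell types moved with some of these results. The dendritic list summed to 52.8 CPM in Gclm-high cells, with Flt3, Xcr1 and Zbtb46 at 0, and 179 CPM in the others, where Ccr7 led in both. Its 3 tested genes (Cd209a, Ccr7 and Fscn1) were lower, and so were both tested B cell genes, Cd79b and Ighm. Only 1 of those B cell genes was lower with any single E0771-Res1 or E0771-Res2 mouse left out. The same count was found with DESeq2 and without cells holding at least 3 neutrophil-marker UMIs. When both classes were kept to the monocyte-macrophage gate, which itself allows at most 1 UMI of dendritic and B cell markers, no dendritic gene could be tested and no B cell gene passed. Within that gate 20 NRF2 targets were higher, 6 MHC class II genes and 13 interferon genes were lower, and C1qa was at -1.84 and H2-Eb1 at -0.75. Of 8 tested T and NK genes, Nkg7 was lower and Cd3d higher. None was higher when any single E0771-Res1 mouse, or E0771-Res2 replicate 1 or 2, was left out. With the score without Slc7a11, none passed in either direction. Cd3d, Cd3e and Cd3g, all among the tested genes, were used to define the base set, which allows at most 1 UMI of them per cell. The Cd3d call is therefore not read as a result. The list summed to 92.0 and 100 CPM. In the monocyte list, Vcan and F13a1 were higher and Ly6c2, Plac8, Ccr2 and Ifitm6 lower. The Ly6c2 call was lost with DESeq2 and with the score without Gclm. Without mouse as block, Ly6c2, Plac8, Vcan and F13a1 did not pass. Neither of the higher genes passed without cells holding at least 3 neutrophil-marker UMIs, or with the score without Slc7a11.

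Neutrophil markers were higher in part of the Gclm-high cells. The list summed to 599 CPM against 109 CPM, led by S100a9 at 271 CPM, with Ly6g, Camp and Ngp at 0. By mouse the list summed to 517 and 2741 CPM in E0771, 939, 449 and 180.2 CPM in E0771-Res1 and 127, 964 and 134 CPM in E0771-Res2 Gclm-high cells. S100a9 was found in 8 Gclm-high cells, and 5 of them held 87.3% of its 457 UMIs. S100a8, S100a9 and Mmp8 passed the test, but the first 2 did not with DESeq2, and Mmp8 did not without the cells described next. S100a8 turned to -2.46 with the score without Slc7a11. S100a9 was higher in 4 of 7 mice, and E0771-Res1 replicate 3 and E0771-Res2 replicates 1 and 3 were at 0. Leaving out cells with at least 3 neutrophil-marker UMIs before ranking kept 214 of the 251 cells and gave 19 NRF2 targets higher. Without those cells, 12 inflammatory genes were higher and 2 lower, 11 interferon and 6 MHC class II genes were lower, and 4 glutathione genes were higher in place of 6.

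Lipid and repair genes split. Of 16 lipid-handling genes, Spp1 (osteopontin), Cd9, Lipa (lysosomal acid lipase), Cd36 (a scavenger receptor), Gpnmb and Lgals3 were higher, and Apoe, Abcg1 and Acat1 were lower. The number lower dropped to 1 without E0771-Res1 replicate 1. Trem2 had a median of 139 CPM in Gclm-high cells and 156 CPM in the others and did not pass. Apoe ranged from 506 to 2519 CPM against 2242 to 4183 CPM. Of 13 suppressive and repair genes, 5 were higher, Mmp12, Thbs1, Vegfa and Cd274 (PD-L1) among them, and Chil3 and Mmp13 were lower. The Cd274 call was lost without E0771-Res1 replicate 2. The number of suppressive and repair genes lower dropped to 1 with DESeq2. It was also 1 without E0771 replicate 1, E0771-Res1 replicate 1 or 2 or E0771-Res2 replicate 1 or 3.

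Gclm-high cells were not uniform. Split after the data were seen, 107 had a Gclm UMI and 144 did not, and the values that follow are a description, since Gclm was part of the score. Hmox1 stood at 6998 CPM in the cells with a Gclm UMI, 726 CPM in those without and 250.2 CPM in the other base-set cells. Prdx1 stood at 9417, 1260.0 and 912 CPM, Slc40a1 at 274, 21.7 and 10.6 CPM, Gclc at 122, 13.6 and 9.21 CPM, and Ptgr1 at 330.1, 16.3 and 13.7 CPM. Hmox1 and Prdx1 were higher in cells with a Gclm UMI in 8 of 8 mice. The sum of 726 CPM rested on E0771-Res1 replicate 2 (1985 CPM) and E0771-Res2 replicates 2 and 3 (1092 and 929 CPM), while the 5 other mice held 123 to 219 CPM, and a Hmox1 UMI was found in 50.7% of the cells without a Gclm UMI and 49.1% of the other base-set cells. On log2(CPM + 5), 20 of 23 NRF2 targets exceeded the other cells by more than 1 in cells with a Gclm UMI, and 3 (Hmox1, Abcc1 and Osgin1) did so in cells without, with medians of 1.75 and 0.49.

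Other genes stood higher in the sum of the cells without a Gclm UMI. Ptgs2 stood at 797 CPM against 414 CPM in cells with a Gclm UMI, and Cxcl3 at 524 against 320 CPM, where 5 cells held 77.8% of all Cxcl3 UMIs. S100a9 stood at 619 against 1.05 CPM, where 5 cells held 87.3% of its UMIs. By cells the neutrophil markers ran the other way, since 18.7% of the cells with a Gclm UMI and 11.8% of those without held at least 3 UMIs of that list. That cutoff was not adjusted for depth, which differed as given below. Slc7a11 stood at 1705 against 1047 CPM, which the choice of cells itself favors, since cells without Gclm could reach the score only through the other score genes. The median of the inflammatory list over the other cells was 1.08 without and 0.595 with a Gclm UMI, and that of the interferon list -0.240 and -0.955. Both kinds were lower in the MHC class II list, at -0.742 and -1.03. Depth moved with the split: cells with a Gclm UMI had a median of 7986 UMIs and those without 4400.5, and the part of detection in it was not tested. These sums pool the mice, and mouse and line moved with the split too. E0771-Res1 replicate 2 gave 36 cells with a Gclm UMI and 15 without, and E0771-Res2 replicate 3 gave 11 and 39. The part of mouse and line was not tested.

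**Figure D4:**
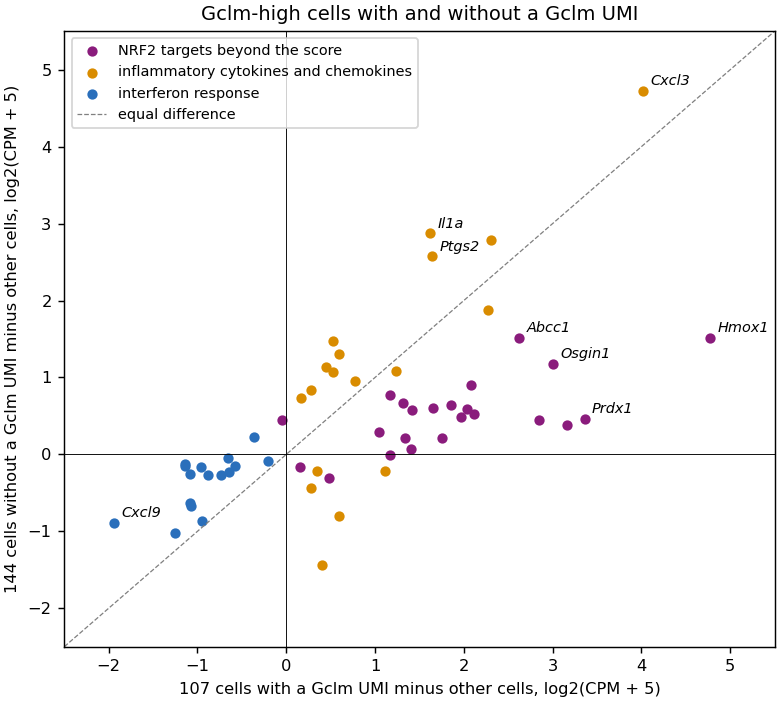
Each point is a gene of the NRF2 target, inflammatory or interferon list, placed by its difference from the other base-set cells on log2(CPM + 5) in the 107 Gclm-high cells with a Gclm UMI (x axis) and in the 144 without (y axis). 22 of 23 NRF2 targets lie below the line of equal difference and 11 of 18 inflammatory genes, Cxcl3 and Ptgs2 among them, lie above it.

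Gclm-high cells were then compared between the resistant lines, 3 mice each. Only 1 parental mouse reached 10 cells, so parental values are given without a test. Of 4166 genes, 9 (0.216%) were higher and 8 (0.192%) lower in E0771-Res2 than in E0771-Res1, 0.408% in either direction (edgeR, Benjamini-Hochberg), and 497 had an unadjusted p under 0.05. Hmox1 and Prdx1 were the only genes of the NRF2 target list that passed here. Hmox1 was at 5738, 6259 and 5668 CPM in E0771-Res1 and 875.06, 3017 and 1954 CPM in E0771-Res2, a log2 fold change of -1.59 ± 0.312 (adjusted p = 0.0294). Prdx1 differed by -1.28 ± 0.216 (edgeR adjusted p = 0.0241), without overlap. Ptgr1, named by a rule that required no overlap between the lines, differed by -1.40 ± 0.251 (edgeR adjusted p = 0.0241). The 2 parental mice, at 2751 and 3063 CPM of Hmox1, lay below all E0771-Res1 mice, and 1 of them lay within the E0771-Res2 range. Cd36 measured 125, 193 and 277 CPM in E0771-Res1 and 22.4, 67.9 and 36.6 CPM in E0771-Res2, a log2 fold change of -2.09. The other genes lower in E0771-Res2 were Tes, Htatip2, Ass1 (argininosuccinate synthase) and Clec4n (dectin-2).

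Of the 9 genes higher in E0771-Res2 Gclm-high cells, Gpnmb, a glycoprotein of lipid-laden macrophages, measured 142, 164 and 270.2 CPM in E0771-Res1 and 1167, 416 and 772 CPM in E0771-Res2, a log2 fold change of 2.05 ± 0.319 (edgeR adjusted p = 0.0241). Ctsk (cathepsin K) differed by 1.90, Hpgds by 2.28, Klf2 (a transcription factor) by 1.83 and the lectin Clec2d by 1.52. These genes and Gpnmb were named by a rule that required no overlap between the lines. Rgs1, Sat1 (which acetylates polyamines), Irf7 and Ptms were the remaining 4. Gpnmb was also higher in the other base-set cells of E0771-Res2 (368 to 513 CPM) than of E0771-Res1 (75.6 to 127 CPM), and so was Hpgds (97.2 to 130 against 43.8 to 65.8 CPM), without overlap in those other cells.

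**Figure D5:**
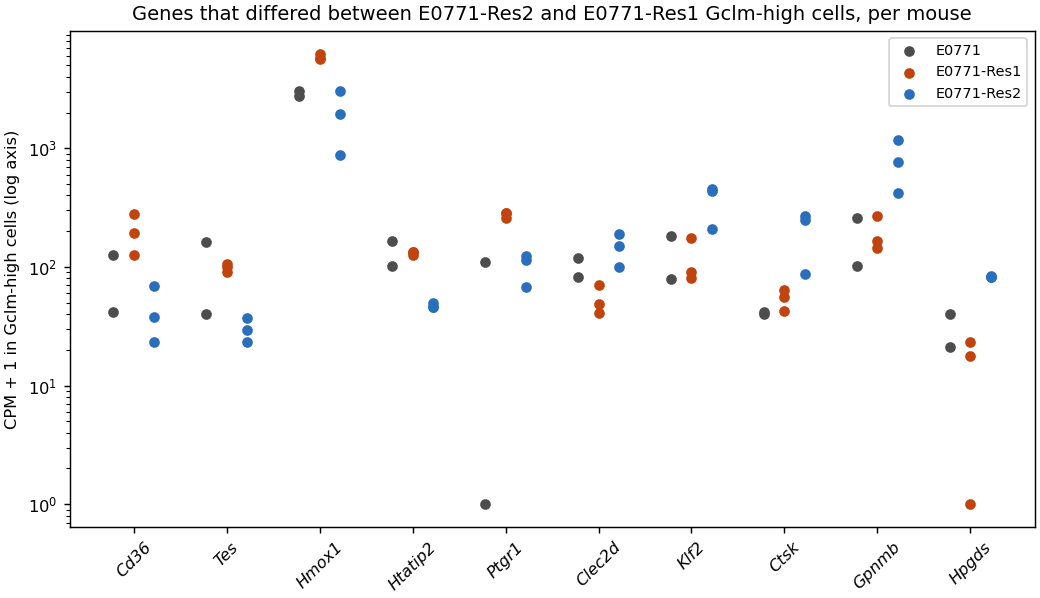
CPM (plus 1, log axis) in Gclm-high cells of each mouse for the 10 genes named for the comparison of E0771-Res2 with E0771-Res1, ordered by log2 fold change. The rule that named them required no overlap between the 3 E0771-Res1 and 3 E0771-Res2 mice, so its absence here is not a result. A point at 1 is a mouse with 0 counts.

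These calls rest on few mice. Without E0771-Res1 replicate 2 or E0771-Res2 replicate 3 none of the 17 genes passed, and without E0771-Res2 replicate 1 the counts were 2 higher and 0 lower, although Hmox1 stayed between -2.09 and -1.24 and Prdx1 between -1.47 and -1.11 with any mouse left out. The share of Gclm-high cells with a Gclm UMI moved with the lines. It was 53.5%, 70.6% and 40.0% in the E0771-Res1 mice but 25.0%, 37.8% and 22% in the E0771-Res2 mice. The median depth of Gclm-high cells was 6264, 7847 and 7288 UMIs in E0771-Res1 and 5778.5, 5328 and 4817.5 UMIs in E0771-Res2. At least 3 neutrophil-marker UMIs were held by 9 of 43, 11 of 51 and 5 of 20 Gclm-high cells in E0771-Res1. In E0771-Res2 the counts were 4 of 24, 2 of 37 and 2 of 50. The part of these features in the differences between the lines was not tested. Among cells with a Gclm UMI alone, Hmox1 was at 7749, 7455 and 11341 CPM in E0771-Res1 and 2462, 5193 and 4619 CPM in E0771-Res2, and Prdx1 at 10823, 10973 and 9729 CPM against 6776, 5800 and 6606 CPM. The lines did not overlap for either gene in those cells, and no test was run on them. With a minimum of 5 cells, E0771 replicate 3 entered and the parental line could be tested: 2 genes (Gstm1 and Lpl) were higher and 1 (Ly6a) lower in E0771-Res1 than in E0771, and 0 of 3091 passed between E0771-Res2 and E0771 by edgeR, where 300 had an unadjusted p under 0.05. At that minimum the difference between Gclm-high and other cells was larger than in E0771 for 20 genes and smaller for 7 in E0771-Res1, and larger for 15 and smaller for 4 in E0771-Res2, of 9669 tested.

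The difference between Gclm-high and other cells was also compared between the lines within mice. Of 10547 genes, 21 (0.199%) had a larger and 27 (0.256%) a smaller log2 difference in E0771-Res2 than in E0771-Res1 by edgeR, 0.455% in either direction, and 612 had an unadjusted p under 0.05. Hmox1 was among the latter, with a difference of differences of -1.46 ± 0.191 (adjusted p = 2.47e-10), as were Prdx1, Slc40a1, Spic, Ftl1 and Cd36. DESeq2 with its size factors called 0 genes larger and 2 smaller. The ratio of Gclm-high to other cells did not overlap between the lines for Prdx1, Ftl1 and Cd36, but overlapped for Hmox1, Slc40a1 and Spic.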

How the data were processed

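Single-cell UMI counts of CD45+ tumor cells from 8 mice were used. The authors deposited, per mouse, a filtered matrix of raw counts made with Cell Ranger 6.1.2 per the file headers, on mm10 per the submitters' processing notes, with 32285 genes and 9 sample-tag features. The study's filters (500 to 6000 genes, under 10% mitochondrial counts) kept 10605 of 11430 cells. Replicates are separate mice, and total counts were 5036667 to 18894504 per mouse. The most abundant tag was the mouse's usual one in 96.9% to 99.9% of its cells. Gclm-high cells and the gene lists were chosen with earlier results of these data known. Counts were summed per mouse and class and tested with edgeR 4.0.16 (TMM, filterByExpr, quasi-likelihood). mt-, Rpl, Rps and Gm-numbered genes were left out. SE is the absolute log2 fold change divided by the square root of F. Shares were compared by exact permutation (scipy 1.17.1). Genes named outside the lists are the 15 largest changes per direction (5 between lines) with adjusted p under 0.05, average log2 CPM of at least 5 and the same sign in every mouse (no overlap between lines). Other genes named outside the lists, and the split by Gclm, were picked after their values were seen. Tests were checked on simulated counts with the same spread for all genes, which real counts need not have. Within mice, 98 of 144 genes changed by log2 1.5 were recovered, with 6 false calls. Between lines 32 of 77 were recovered at log2 1.5, with 2 false calls. For the difference of differences 79 of 182 were recovered at log2 3, with 2 false calls. Gene positions are from GENCODE M21 (GRCm38). DESeq2 1.42.0 was an alternative. The monocyte-macrophage gate took at least 3 UMIs of its markers and at most 1 of dendritic and B cell markers, and the neutrophil gate at least 3 UMIs. Some genes are not reported here.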

Additional observations from a re-analysis of the deposited data

Results flagged for a closer look

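The following genes had a difference between Gclm-high and other base-set cells that itself differed between E0771-Res2 and E0771-Res1 (edgeR interaction test, mouse as block, 7 mice, adjusted over 10547 genes). Values are the E0771-Res2 difference minus the E0771-Res1 difference in log2. The adjusted p values of this fit should be read beside the overlap of ratios between mice given below. Smaller in E0771-Res2 were Hmox1 (-1.46), Slc40a1 (-1.37), Spic (-1.45), Cyb5a (-1), Prdx1 (-1.02), Ftl1 (-0.759) and Esd (-0.74), with adjusted p from 2.47e-10 to 0.0455. Slc40a1 stood at 173, 307 and 208 CPM in E0771-Res1 and 14.96, 149 and 44.7 CPM in E0771-Res2 Gclm-high cells, and its value was -2.31 without E0771-Res2 replicate 2 and -0.879 without E0771-Res2 replicate 1. Also smaller were Cd36 (-2.42), Lpl (-1.48) and Fabp4 (-1.86), and Pf4 (-1.18), Cxcl3 (-1.25) and S100a9 (-1.56). The ratio of Gclm-high to other cells overlapped between the lines for Hmox1, Slc40a1, Spic, Fabp4, Pf4, Cxcl3 and S100a9, the last at 490, 193 and 0 CPM in E0771-Res1 and 0, 520 and 0 CPM in E0771-Res2 Gclm-high cells. Fabp4 rested largely on E0771-Res1 replicate 3, at 395 CPM against 25.1 and 102 CPM in the other Gclm-high sums of that line, and was at -0.58 without it. Cxcl3 was at -0.62 without that mouse.

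Larger in E0771-Res2 were Cxcl9 (2.05), Cmpk2 (1.63), Ly6i (1.34), Ccl5 (1.24), Plac8 (0.846) and H2-Eb1 (0.752). The ratio overlapped between the lines for all of these except Cxcl9. Cxcl9 was at 80.8, 37.2 and 62.4 CPM in E0771-Res1 and 59.8, 303 and 97.5 CPM in E0771-Res2 Gclm-high cells, so these levels overlapped, and it was at 1.20 without E0771-Res2 replicate 2. Ccl5 was at 501, 161 and 1718 CPM in E0771-Res1 and 1683, 1366 and 1398 CPM in E0771-Res2, and at 0.58 without E0771-Res1 replicate 2.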

How the results depend on the processing

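The 20 NRF2 targets called higher were 19 to 22 under all alternatives. Genes lower in Gclm-high cells numbered 427 with edgeR and 258 with DESeq2, and the total numbers higher and lower stayed within 1.5 times under the other alternatives. Among the lists, hypoxia and glycolysis fell from 15 to 8, interferon from 12 to 7 and ATF4 from 4 to 2 under the settings given above. Under those settings heat shock and immediate early genes higher fell from 3 to 1. Genes lower fell from 3 to 1 for lipid handling and from 2 to 1 for suppressive and repair and for B cell genes. Thioredoxin and peroxiredoxin genes lower fell from 3 to 1 with the score without Slc7a11. With single mice left out the range was 319 to 450.0 genes higher and 326 to 395 lower. Of 80 named genes under 25 alternatives, 1920 values kept direction and side of the threshold, 73 lost the call, 6 gave no value because the gene was too low to test (Cd209a, S100a8 and S100a9), and 1 turned: S100a8 to -2.46 with the score without Slc7a11. Scoring without Slc7a11 kept 127 of the 251 cells and 56.3% of the calls.

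Between E0771-Res2 and E0771-Res1, genes higher numbered 9 (14 with DESeq2, 45 with no expression filter, 16 with the highest 5%, 3 with the replicate block) and genes lower 8 (65 with no filter, 5 with at least 5 cells per mouse), and with single mice left out 0 to 24 and 0 to 22. For the difference of differences, genes larger numbered 21 (0 with DESeq2, 2 with the highest 5%) and smaller 27 (2, 7, and 15 with at least 5 cells), and with single mice left out 3 to 27 and 8 to 35. The cause was not tested. No pairing of mice across lines by replicate number was seen: the correlation of deviations between equal numbers was -0.0558 to 0.0884 over 7 pairs. Between unlike numbers it was -0.153 to 0.107. The check rests on few mice and cells and cannot exclude pairing. In the comparison within mice, leaving out the mouse term (no replicate block) gave 392 higher and 305 lower. With any mouse left out, share differences ranged from 0.756 to 2.54 points (resistant minus E0771), 0.791 to 4.70 (E0771-Res1 minus E0771), 0.444 to 1.27 (E0771-Res2 minus E0771) and -3.97 to -0.0592 (E0771-Res2 minus E0771-Res1), and no setting passed the threshold. Permuting within replicate number gave p = 0.222 for resistant minus E0771 (exact permutation).

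Sums held 9 to 51 Gclm-high cells (49618 to 403405 UMIs), so low genes were not testable, and 1 parental mouse in the fits leaves the parental line without a replicate.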

Other observations

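Over promoter windows of all tested genes with a RefSeq entry, the letters TGACNNNGC were present for 98 of 377 genes higher in Gclm-high cells (26.0%), 51 of 335 lower genes (15.2%) and 1173 of 6795 genes tested (17.3%). Of 15 NRF2 targets that were higher and had an entry, 4 held them (G6pdx, Mafg, Pgd and Prdx1). These are counts of letters, and no test was run.

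Over the whole base set, with no choice of cells, Hmox1 measured 237 and 190 CPM in E0771, 368, 1186 and 295 CPM in E0771-Res1 and 244, 345 and 272 CPM in E0771-Res2. E0771-Res1 replicate 2 was the highest, and also in the share of cells with a Hmox1 UMI (62.3%, where the other 7 mice held 45.1% to 55.6%). In that mouse 96.1% of the Gclm-high cells carried the mouse's usual sample tag as the most abundant one, against 100% in the other 7 mice.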
